A study of Sus scrofa with 6 samples.

Results

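NDN and NREP are 2 of the 6765 genes that carried a symbol of their own on a porcine microarray of the pig intestinal cell lines IPEC-1 and IPEC-J2. Both genes gave a strong signal on every IPEC-1 array and no signal above the lowest possible value on any IPEC-J2 array. They were picked for this pattern from their measured values, so the difference between the cell lines is a description of these genes and was not tested. Each gene (gene ID 100144475 for NDN and 100037285 for NREP) was read by 1 probe set.

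IPEC-1 and IPEC-J2 arose by spontaneous immortalisation of small intestinal epithelium of newborn piglets and grow as polarised monolayers on membrane inserts. RNA of 3 cultures per cell line, 500 ng each, was labelled for 6 porcine Affymetrix arrays, so that an array stands for 1 culture. The labels name no treatment, and all cultures shared a medium with foetal calf serum and epidermal growth factor, with 7 days on the membrane according to the labels and more days according to the methods. Each group is a single cell line, the number of arrays limits the precision, and the spread that p-values rest on is that between these few cultures.

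Necdin, the product of NDN, is a member of the MAGE protein family that restrains cell growth and binds E2F transcription factors and p53. In human and mouse only the copy inherited from the father is active, and NDN lies in the chromosome region that is missing in Prader-Willi syndrome, next to the related MAGEL2. NREP, the neuronal regeneration related protein, is a small intracellular protein first known from nerve tissue and smooth muscle. It binds the translation factor subunit EIF3B, promotes the translation of the TGF-beta messengers, and is known from myofibroblasts and from cells that migrate into wounds.

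The signals are on a log2 scale and end at a floor of 4.00 that stands for no measurable signal. NDN had log2 signals of 11.66, 11.63 and 11.94 in IPEC-1 replicates 1, 2 and 3 and stood at the floor in each of the 3 IPEC-J2 cultures. Its mean was 11.74 ± 0.17 (SD, n = 3) in IPEC-1, and the difference of IPEC-J2 minus IPEC-1 was -7.74. The 3 IPEC-1 arrays lay within 0.31 of each other and far from the IPEC-J2 arrays, without overlap. In 2 cases an array of each cell line carried the same culture note in the labels, called A and B here, and within these notes the difference was -7.66 and -7.63.

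NREP had log2 signals of 11.21, 11.99 and 11.70 in IPEC-1 replicates 1, 2 and 3 and likewise stood at the floor in each of the 3 IPEC-J2 cultures. Its mean was 11.63 ± 0.39 (SD, n = 3) in IPEC-1 and its difference was -7.63. Replicate 1 was the lowest IPEC-1 array for NREP and replicate 2 the highest, a range of 0.78. Within notes A and B the difference was -7.21 and -7.99. NREP varied more between the IPEC-1 cultures than NDN did: of the 455 measured genes with an IPEC-1 mean above 11, 70.8% had a smaller SD than NDN and 94.3% had a smaller SD than NREP.

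**Figure D1:**
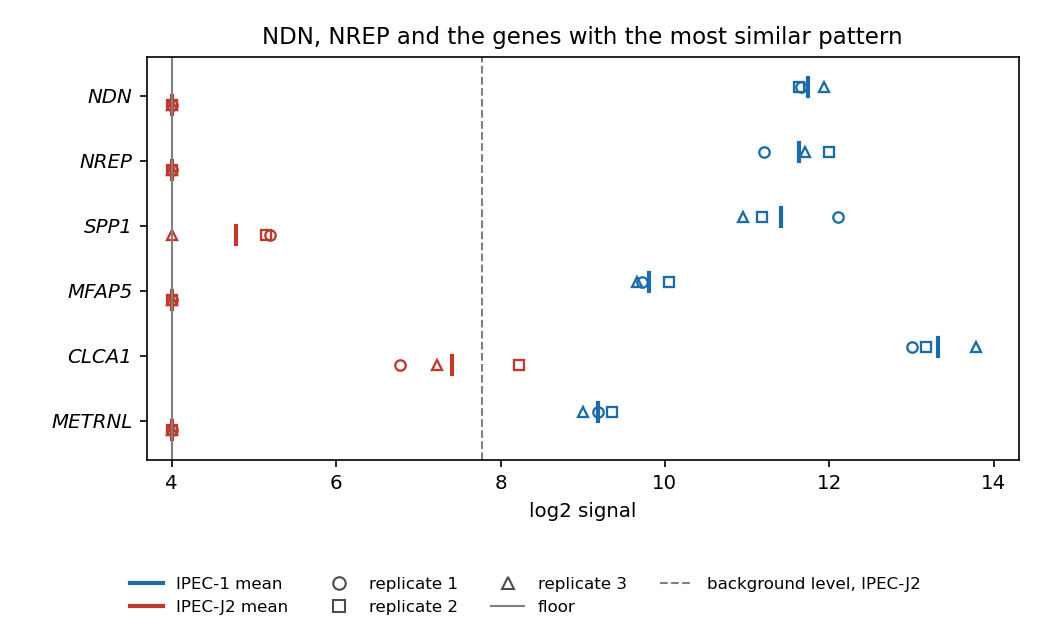
Log2 signals (horizontal axis) of NDN, NREP and the genes most similar to them, with 1 open symbol per array (circle, square and triangle for replicates 1, 2 and 3), blue for IPEC-1 and red for IPEC-J2, a bar for the mean of 3 arrays, a solid line at the floor and a dashed line at the background level of IPEC-J2. All IPEC-1 symbols of NDN and NREP sit between 11.21 and 11.99, and all IPEC-J2 symbols of both genes sit on the floor.

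A value at the floor gives only an upper limit, so the difference on the log2 scale is not a measured fold. A level that stands for the floor was therefore taken from probe sets that were at the floor on both other arrays of the same cell line. The 95th percentile of their signals above the floor was 7.78 in IPEC-J2, from 1640 probe sets, and 7.85 in IPEC-1, from 1601 probe sets. Against this level NDN was at least 15.6-fold lower in IPEC-J2 than in IPEC-1, or at least 14.4-fold lower when its lowest IPEC-1 array is used. NREP was at least 14.5-fold lower, or at least 10.8-fold lower from its lowest IPEC-1 array. These bounds depend on the level chosen: with the 99th percentile they were 5.74 for NDN and 5.32 for NREP, and with the floor itself as the signal they were 214 and 199. Fewer cells with the transcript and less transcript per cell cannot be told apart in RNA of whole cultures.

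Among the 5513 genes with a signal above the floor on any array, called measured genes here, 76 had the pattern that chose NDN and NREP, a signal on every IPEC-1 array and the floor on every IPEC-J2 array. They are 1.38% of the measured genes. Their median IPEC-1 mean was 6.72, and NDN and NREP were the 2 genes among them with a mean above 10. The next was MFAP5, a protein of elastic microfibrils, with 9.81 ± 0.21 (SD, n = 3). Signals of different probe sets depend on their probes, so these are counts of signals and not an order of transcript amounts. Without regard to gene names, 261 of 16322 measured probe sets (1.60%) had the pattern, 4 of them with a mean above 10, and the highest apart from those of NDN and NREP reached 10.57. The opposite pattern, the floor on every IPEC-1 array, was found for 89 genes (1.61%), and 9 of these had an IPEC-J2 mean above 10. Of the measured probe sets 229 (1.40%) had this opposite pattern, so that neither direction was clearly the more frequent one.

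**Figure D2:**
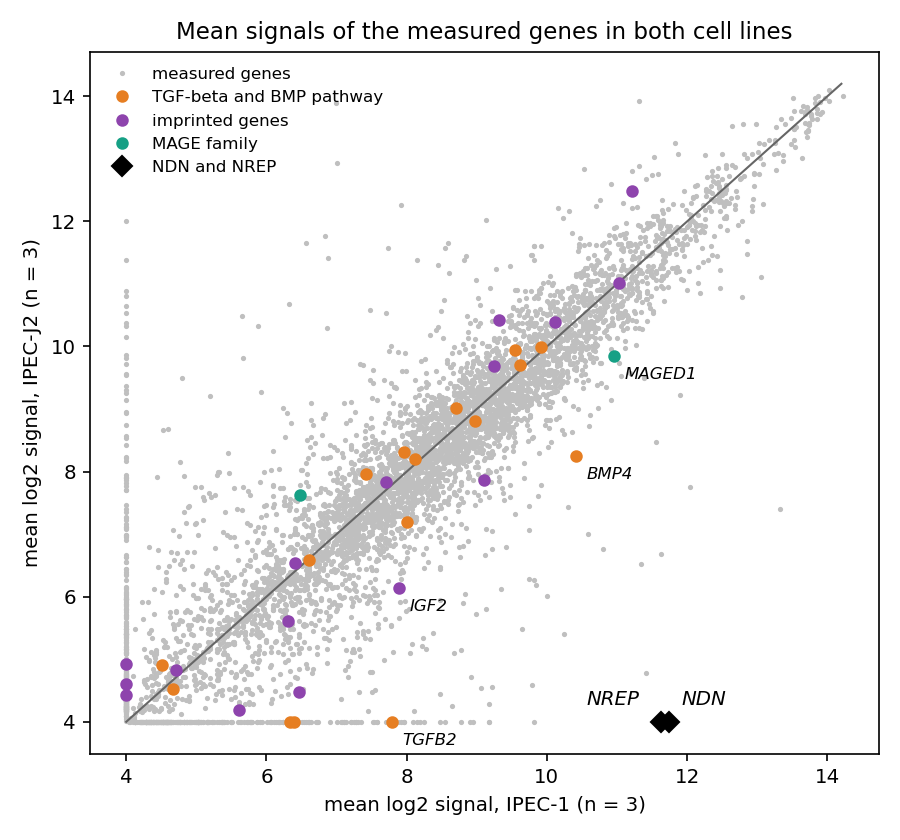
Mean log2 signal of each measured gene in IPEC-1 (horizontal axis, n = 3) against IPEC-J2 (vertical axis, n = 3), with a line of equal signal, grey points for 5513 genes and colours for 3 gene lists. NDN and NREP (black diamonds) sit on the floor of IPEC-J2 at 11.74 and 11.63 in IPEC-1, to the right of all other genes on that floor.

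The genes whose signals over the 6 arrays were most similar were found from the root mean square distance between their log2 signals, each gene centred on its own mean. NDN and NREP were nearest to each other, with a distance of 0.25. Both were picked for the same pattern, so this nearness is no separate result. The same 4 genes followed for both, namely SPP1, MFAP5, CLCA1 and METRNL, at distances of 0.80, 0.99, 1.02 and 1.30 from NDN and of 0.85, 0.93, 1.00 and 1.25 from NREP. With 6 arrays in 2 groups, this measure mostly finds genes with a similarly large step between the cell lines, and no test is attached to it. SPP1 (osteopontin, a secreted phosphoprotein) had log2 signals of 12.10, 11.18 and 10.95 in IPEC-1 against 5.20, 5.15 and 4.00 in IPEC-J2. CLCA1, a protein secreted by goblet cells, had 13.01, 13.17 and 13.78 in IPEC-1 against still 6.78, 8.22 and 7.23 in IPEC-J2. METRNL, a secreted relative of meteorin, had 9.19, 9.35 and 9.00 in IPEC-1, and like MFAP5 it had floor values in each of the 3 IPEC-J2 cultures. SPP1 was thus at the floor on 1 IPEC-J2 array, and of the IPEC-J2 signals of SPP1 and CLCA1 only the 8.22 of CLCA1 exceeded the background level of 7.78.

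The genes around both loci were read next, to see whether their neighbours had the same pattern. In the order of the RefSeq gene table (Sscrofa11.1), MAGEL2 and MKRN3 follow NDN directly, but neither had a probe set with a symbol of its own on the array. The nearest measured gene before NDN, with 3 genes between, was UBE3A, a ubiquitin ligase that is also imprinted. Its mean log2 signal was 10.12 ± 0.03 in IPEC-1 against 10.39 ± 0.07 in IPEC-J2 (SD, n = 3 each), a difference of 0.26 (SE 0.0426, limma adjusted p = 0.0198). UBE3A thus did not share the floor values of NDN in IPEC-J2. Its small difference did not pass when genes at the floor on every array were left out of the fit (adjusted p = 0.0807) or when any 1 of the IPEC-1 replicates or IPEC-J2 replicate 3 was left out. KLF13, a transcription factor with 5 genes between it and NDN on the other side, had a difference of 0.75 (SE 0.189, adjusted p = 0.0607), also toward IPEC-J2. It passed when genes without any signal above the floor were dropped (adjusted p = 0.0370), with quantile normalization (adjusted p = 0.0353) and with centring on the 75th percentile (adjusted p = 0.0165). Next to NREP, LOC100518827 had a difference of -0.15 (SE 0.0955, adjusted p = 0.374). TICAM2, an adaptor of toll-like receptors with 14 genes between it and NREP, had 7.09 ± 2.68 in IPEC-1 against 5.32 ± 2.29 in IPEC-J2 (SD, n = 3 each), a difference within its spread (-1.77, SE 1.94, adjusted p = 0.639). None of the 4 neighbours had floor values in each IPEC-J2 culture. For TICAM2 this means little, since its mean lay below the background level in both cell lines. Within notes A and B TICAM2 differed by -0.59 and 0.00.

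Genes linked to NDN and NREP were then compared between the cell lines with lists of relatives, partners and pathway members. As background, limma called 640 of the 5513 measured genes higher in IPEC-J2 (11.6%) and 761 lower (13.8%), and the median difference of all measured genes was -0.05. For a gene at the floor on every array of a cell line, that line adds no spread. The SE and adjusted p of such a gene rest mainly on the other cell line and may be too small. Of 17 listed MAGE family genes other than NDN, 3 had a probe set, and TRO was at the floor on all arrays. MAGED1, which like necdin binds neurotrophin receptors and transcription factors, had log2 signals of 10.61, 11.34 and 10.94 in IPEC-1 against 9.82, 9.94 and 9.78 in IPEC-J2. It fell in IPEC-J2, without overlap, by 1.12 on the log2 scale (SE 0.206, adjusted p = 0.0272), which is 2.17-fold, with differences of -0.83 and -1.52 within notes A and B. MAGED1 did not pass when IPEC-1 replicate 3 or any 1 of the IPEC-J2 replicates was left out. MAGEH1, a small MAGE gene, had 6.14, 7.07 and 6.23 in IPEC-1 against 7.23, 8.01 and 7.62 in IPEC-J2, a difference of 1.14 that did not pass (adjusted p = 0.101). NDN was picked for its floor values in IPEC-J2, while MAGED1 and MAGEH1, the other MAGE genes measured here, were above the floor in that cell line. MAGED2 had no probe set with a symbol of its own.

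Of 22 listed genes whose products are known to bind necdin or act with it, 12 had a probe set and 10 were measured, of which 1 was higher and 2 were lower, with a median difference of -0.34. EID1, an inhibitor of differentiation that necdin binds, had floor values in each of the 3 IPEC-1 cultures and had 5.63, 6.51 and 6.35 in IPEC-J2 (difference 2.16, SE 0.258, adjusted p = 0.00900). EID1 thus showed the opposite of the NDN pattern, at signals below the background level of 7.85, so no fold is given. MSX1, a homeobox factor, was lower by -1.44 (SE 0.0847, adjusted p = 0.00140), also at signals below the background level. Of its 2 probe sets 1 was at the floor on all arrays, and the other differed by -2.88. FOXO1, a forkhead factor that restrains growth, fell by 0.52 (SE 0.0547, adjusted p = 0.00673, 1.44-fold). For FOXO1 1 of 2 probe sets was at the floor on all arrays, and the other differed by -1.04. E2F1 and E2F4, the E2F factors best known as necdin partners, had no probe set with a symbol of their own. FEZ1, a neuronal transport protein, had 6.05, 8.20 and 5.91 in IPEC-1 against 5.29, 4.97 and 4.98 in IPEC-J2, and its difference of -1.64 did not pass (adjusted p = 0.207).

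Among the genes of the G1/S transition and the E2F targets, 46 were listed, 21 had a probe set and 20 were measured. Of these 2 were higher, 1 was lower and 17 were not called, and the median difference was 0.03. CDKN1A (p21), the inhibitor of cyclin-dependent kinases that p53 induces, had log2 signals of 7.81, 8.20 and 8.45 in IPEC-1 against 10.76, 11.87 and 11.53 in IPEC-J2. CDKN1A rose 9.40-fold in IPEC-J2 (difference 3.23, SE 0.359, adjusted p = 0.00770), by 3.72 and 2.56 within notes A and B. CDKN1B (p27), a second inhibitor of these kinases, fell by 0.69 (SE 0.148, adjusted p = 0.0406), and TYMS, an E2F target that makes thymidylate, rose by 1.21 (SE 0.245, adjusted p = 0.0349). CDKN1B passed in none of the fits without IPEC-1 replicate 1 or 2 or without an IPEC-J2 replicate, and TYMS passed among the fits that leave out 1 array only without IPEC-1 replicate 1. For TYMS 1 of 2 probe sets was at the floor on all arrays, and the other differed by 2.41. The shares of called genes in this list did not exceed the background in either direction.

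**Figure D3:**
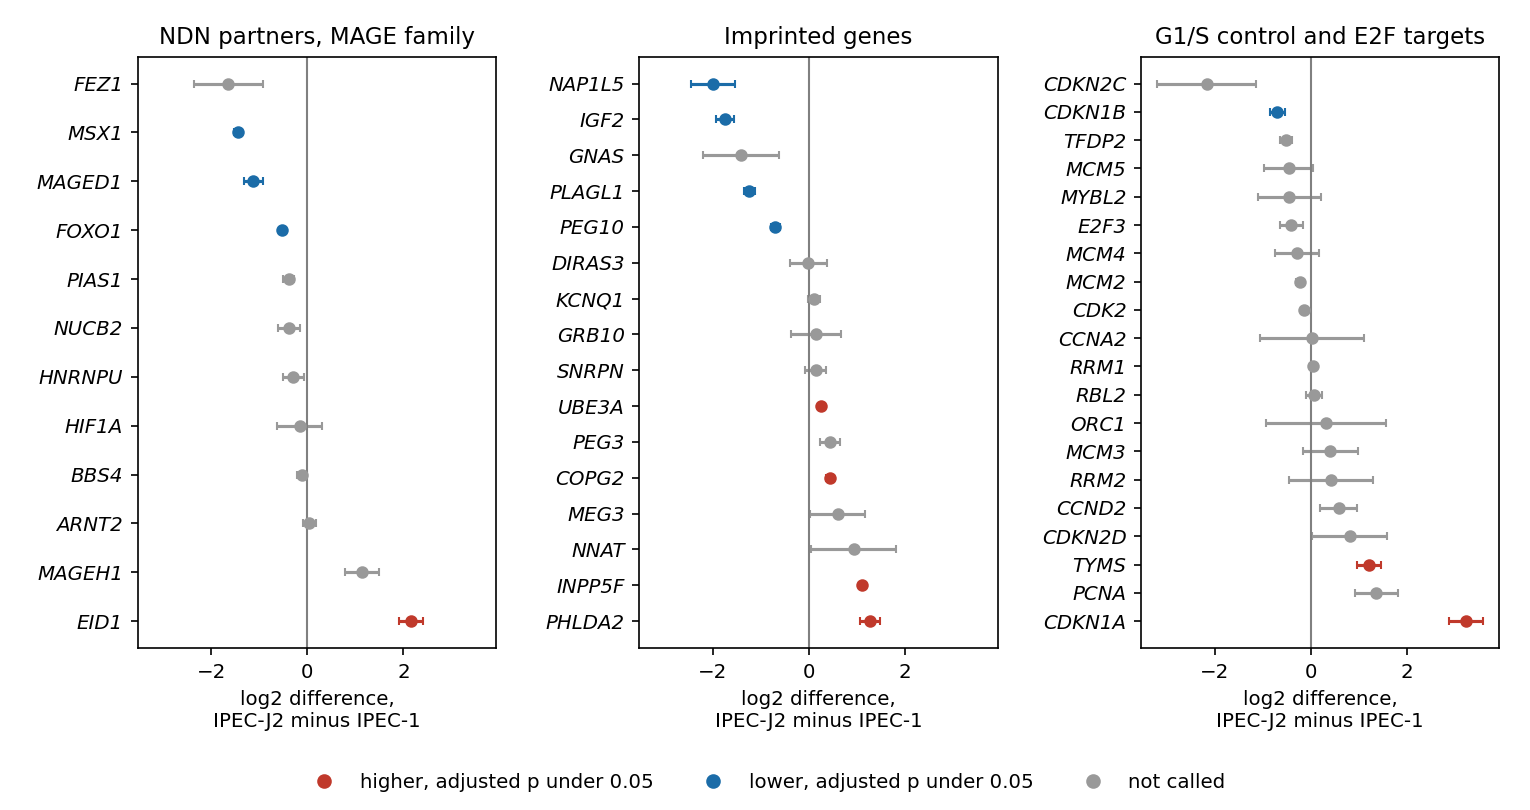
Log2 difference of IPEC-J2 minus IPEC-1 (horizontal axis) for the measured genes of 4 lists linked to NDN, with points for the limma estimate from 3 arrays against 3, bars for its SE, red for higher and blue for lower at an adjusted p under 0.05, and grey for genes not called. CDKN1A has the largest gain of these lists at 3.23, and imprinted genes were called in both directions.

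NDN is an imprinted gene, and 34 other imprinted genes were listed, of which 18 had a probe set and 16 were measured. Of these 4 were higher (25.0%) and 4 were lower (25.0%), so that the list had no common direction, with a median difference of 0.14. IGF2, a fetal growth factor, had 7.74, 7.84 and 8.09 in IPEC-1 against 5.99, 6.48 and 5.94 in IPEC-J2 and fell by 1.75 (SE 0.189, adjusted p = 0.00724), which is 3.37-fold, or 2.01-fold against the background level. Of the 13 IGF2 probe sets 4 were at the floor on all arrays, and the other 9 were all lower, the lowest by -5.45. PLAGL1, a zinc finger factor that like necdin restrains growth, fell from 9.10 ± 0.09 in IPEC-1 to 7.87 ± 0.20 in IPEC-J2 (SD, n = 3 each; difference -1.24, SE 0.122, adjusted p = 0.00564), with all 3 of its probe sets lower. PEG10, a gene derived from a retrotransposon, fell by 0.70 (SE 0.0883, adjusted p = 0.0102), where 2 of its 3 probe sets were at the floor on all arrays and the measured one differed by -2.11. NAP1L5, a relative of nucleosome assembly proteins, had a difference of -1.99 (SE 0.459, adjusted p = 0.0481) at signals below the background level, and passed among the fits that leave out 1 array only without IPEC-J2 replicate 3.

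In the other direction PHLDA2, known to restrain growth of the placenta, rose from 11.22 ± 0.29 to 12.49 ± 0.23 (SD, n = 3 each; difference 1.27, SE 0.203, adjusted p = 0.0188, 2.42-fold). INPP5F, a phosphoinositide phosphatase, rose by 1.11 (SE 0.0613, adjusted p = 0.00120), and COPG2, a coatomer subunit, by 0.44 (SE 0.0906, adjusted p = 0.0370), beside UBE3A. PHLDA2 did not pass without IPEC-1 replicate 1 or IPEC-J2 replicate 2 or 3, and COPG2 passed only without IPEC-J2 replicate 2. SNRPN, the splicing gene of the Prader-Willi region in human, had 7.70 ± 0.33 in IPEC-1 against 7.84 ± 0.20 in IPEC-J2 (SD, n = 3 each), a difference of 0.14 that did not pass (SE 0.213, adjusted p = 0.803). Its position relative to NDN in the pig was not used, so SNRPN is not read as a neighbour of NDN here. NDN was picked for its pattern, and no other imprinted gene of the list had a strong IPEC-1 signal beside floor values in each IPEC-J2 culture. The count of higher genes in this list fell to 1 without IPEC-1 replicate 1 or IPEC-J2 replicate 3, and to 2 without IPEC-1 replicate 2 or 3.

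NREP is known to act on the TGF-beta ligands through translation, so the ligands, receptors and SMAD factors were read at the level of transcripts. Of 42 listed genes of the TGF-beta and BMP pathway, 21 had a probe set, 5 were at the floor on all arrays and 16 were measured. None was called higher and 3 were called lower (18.8%), with a median difference of 0.03. TGFB1 had 8.98 ± 0.01 in IPEC-1 against 8.81 ± 0.08 in IPEC-J2 (SD, n = 3 each), a difference of -0.17 that did not pass (SE 0.0449, adjusted p = 0.0662), and its 2 probe sets differed in sign (-0.36 and 0.02). TGFB3 was at the floor on all arrays. TGFB2 had log2 signals of 7.90, 7.94 and 7.53 in IPEC-1 and floor values in each of the 3 IPEC-J2 cultures, the pattern of NREP at a lower signal. Its difference was -3.79 (SE 0.126, adjusted p = 0.000270) and -3.90 and -3.94 within notes A and B. All 4 probe sets of TGFB2 were lower, by -5.02 to -2.66, and against the background level TGFB2 was at least 1.38-fold lower.

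Of the receptors, TGFBR3 (betaglycan), which presents TGF-beta 2 to the signalling receptors, had 6.41, 6.06 and 6.54 in IPEC-1 and floor values in each IPEC-J2 culture (difference -2.34, SE 0.136, adjusted p = 0.00137). These signals lie below the background level, so no fold is given. The signalling receptor TGFBR1 differed by -0.02 (SE 0.281, adjusted p = 1.00), and the SMAD factors measured, SMAD1, SMAD3 and SMAD4, by 0.08, 0.32 and 0.09 without passing. BMP4, a ligand of the related BMP branch, had 10.10, 10.47 and 10.68 in IPEC-1 against 8.77, 7.92 and 8.05 in IPEC-J2. BMP4 fell 4.50-fold, without overlap (difference -2.17, SE 0.299, adjusted p = 0.0131), with -2.05 and -1.70 within notes A and B, and did not pass without IPEC-1 replicate 2 or without IPEC-J2 replicate 3. The mean log2 signal of the 16 pathway genes was 7.98, 7.77 and 7.68 on the IPEC-1 arrays and 7.03, 7.39 and 7.22 on the IPEC-J2 arrays. The largest falls in the list were those of TGFB2, INHA (-2.39, not called), TGFBR3 and BMP4, and its median difference was 0.03. When arrays were centred on their 75th percentile 3 genes of the list were called higher beside the 3 lower ones, quantile normalization gave 2 higher and 4 lower, and 2 were higher without IPEC-J2 replicate 1.

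Genes that respond to TGF-beta or mark myofibroblasts, where NREP is known, were listed as 40 genes. Of these 30 had a probe set, 12 were at the floor on all arrays and 18 were measured, of which 2 were higher (11.1%) and 5 were lower (27.8%), with a median difference of -0.62. POSTN (periostin), a matrix protein induced by TGF-beta, had 7.65, 7.07 and 7.63 in IPEC-1 against 4.00, 4.00 and 4.52 in IPEC-J2. It fell by 3.28 (SE 0.244, adjusted p = 0.00262), and by 1.48-fold if signals under the background level are taken as background. ID3, an inhibitor of differentiation induced by BMP signals, had 12.52, 12.44 and 12.45 in IPEC-1 against 10.65, 11.23 and 10.94 in IPEC-J2, a fall of 2.89-fold (difference -1.53, SE 0.161, adjusted p = 0.00677). The contractile genes MYL9 and TPM1, a myosin light chain and a tropomyosin, fell by 1.46 (SE 0.325, adjusted p = 0.0442) and by 1.18 (SE 0.205, adjusted p = 0.0231). COL5A1, a fibrillar collagen chain, was lower by -0.67 (SE 0.0860, adjusted p = 0.0107) at signals below the background level. In the opposite direction SPARC, a matrix glycoprotein, rose from 5.46 ± 0.10 to 7.97 ± 0.01 (SD, n = 3 each; difference 2.51, SE 0.0566, adjusted p = 9.57e-05), and LOX, which links collagen, rose by 1.22 (SE 0.105, adjusted p = 0.00399). For SPARC and LOX 1 of 2 probe sets each was at the floor on all arrays, and the measured ones differed by 5.02 and 2.44.

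The contractile genes ACTA2 and CNN1 and the matrix genes COL3A1, FBN1, DCN and LUM were among the 12 at the floor on all arrays. The matrix genes FN1 and COL1A2 were measured in both cell lines, with differences of 0.08 and -0.03 that did not pass. TAGLN, a smooth muscle gene, had 10.14, 9.81 and 8.08 in IPEC-1 against 7.26, 7.10 and 4.00 in IPEC-J2, without overlap, but its difference of -3.22 did not pass (SE 1.18, adjusted p = 0.145). The number of response genes called lower was 2 without IPEC-J2 replicate 3 and 3 without IPEC-1 replicate 1 or IPEC-J2 replicate 2. Among the fits that leave out 1 array MYL9 passed only without IPEC-J2 replicate 1, and TPM1 only without IPEC-1 replicate 2 or 3. MYL9 did not pass with quantile normalization (adjusted p = 0.0700), and TPM1 did not pass when its brightest probe set stood for the gene (difference -0.61).

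**Figure D4:**
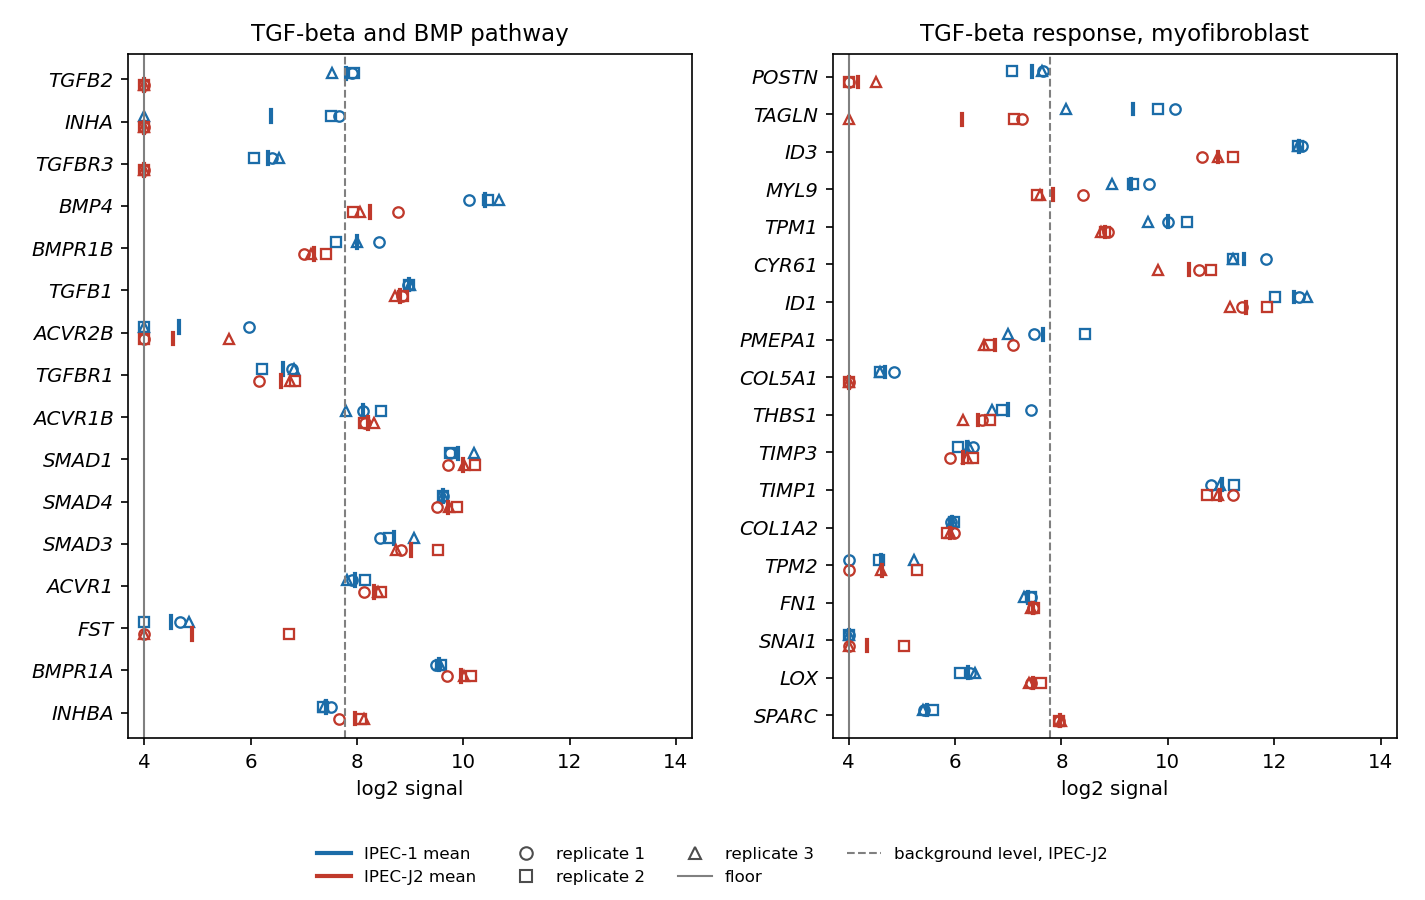
Log2 signals (horizontal axis) of the measured genes of the TGF-beta and BMP pathway (left) and of genes that respond to TGF-beta or mark myofibroblasts (right), with 1 open symbol per array (circle, square and triangle for replicates 1, 2 and 3), blue for IPEC-1, red for IPEC-J2, a bar for the mean of 3 arrays, a solid line at the floor and a dashed line at the background level of IPEC-J2. TGFB2 lies on the floor in IPEC-J2 as NREP does, while the IPEC-J2 symbols of LOX and SPARC lie above those of IPEC-1.

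EIF3B, the translation factor subunit that NREP binds, had log2 signals of 8.70, 8.60 and 8.64 in IPEC-1 against 8.71, 9.08 and 8.58 in IPEC-J2, a difference of 0.14 that did not pass (SE 0.145, adjusted p = 0.603). The partner of NREP was thus measured at overlapping signals in both cell lines. The list of EIF3 subunits with FLNA and RALA, a filamin and a small GTPase linked to NREP, held 15 genes, and the 11 with a probe set were all measured. Of these 5 were lower (45.5%), beside 13.8% of all measured genes, and none was higher, with a median difference of -0.22. The lower genes were the EIF3 subunits EIF3H (-0.59, SE 0.0844, adjusted p = 0.0142), EIF3L (-0.50, SE 0.0526, adjusted p = 0.00677), EIF3K (-0.48, SE 0.0482, adjusted p = 0.00620), EIF3E (-0.45, SE 0.0659, adjusted p = 0.0150) and EIF3D (-0.29, SE 0.0615, adjusted p = 0.0391). These falls were small, at most 1.51-fold. The number of lower genes was 2 without IPEC-1 replicate 2 or 3, 2 with the replicate number as a block, 3 without IPEC-J2 replicate 1, and 3 with centring on the 75th percentile.

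NDN and NREP are both known from tissues other than epithelium, so markers of such cells were read beside them. The epithelial markers EPCAM, KRT8 and KRT18 were strong on all 6 arrays, EPCAM between 13.34 and 13.60. Of the 12 epithelial markers with a probe set, all measured, 4 were higher in IPEC-J2 (33.3%) and 1 was lower, with a mean log2 signal of 9.87 to 10.42 on the IPEC-1 arrays and 11.09 to 11.47 on the IPEC-J2 arrays. The median difference of the list was 0.04, and VIL1 and LGALS4 had its largest differences. The higher ones were VIL1 (6.90, adjusted p = 0.0367), LGALS4 (4.35, adjusted p = 0.00263), CLDN3 (2.14, adjusted p = 0.000214) and CLDN7 (1.09, adjusted p = 0.0297), and KRT19 was the lower one (-0.80, adjusted p = 0.00223). VIL1 passed among the fits that leave out 1 array only without IPEC-1 replicate 2, and CLDN7 only without IPEC-J2 replicate 3. For CLDN3 1 of 2 probe sets was at the floor on all arrays, and the other differed by 4.28. Of 16 fibroblast markers 12 had a probe set, and COL3A1, DCN, LUM, FBN1 and PRRX1 were at the floor on all arrays. Of the 7 measured ones 3 were higher in IPEC-J2 (THY1, CDH11 and SPARC) and 1 was lower (POSTN), and their mean log2 signal lay between 6.34 and 6.53 on the IPEC-1 arrays and between 7.23 and 7.53 on the IPEC-J2 arrays. The higher mean came from THY1, CDH11 and SPARC, and the median difference of the list was -0.03, beside -0.05 over all measured genes. VIM, an intermediate filament of mesenchymal cells, had 13.06, 12.17 and 13.35 in IPEC-1 against 10.95, 11.63 and 11.85 in IPEC-J2, a difference of -1.38 that did not pass (adjusted p = 0.0989).

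Of the smooth muscle markers 5 of 7 had a probe set. ACTA2, CNN1 and DES were at the floor on all arrays, and the mean log2 signal of TAGLN and SMTN lay between 6.74 and 7.79 in IPEC-1 and between 4.51 and 6.15 in IPEC-J2, with SMTN called lower (-0.37, SE 0.0420, adjusted p = 0.00838). Of the 3 SMTN probe sets 2 were at the floor on all arrays and the measured one differed by -1.10, and SMTN did not pass with centring on the 75th percentile (adjusted p = 0.0582). Of 14 neural markers 9 had a probe set, and UCHL1, ELAVL4, SOX10 and SNAP25 were at the floor on all arrays. The 5 measured ones had a mean log2 signal between 4.80 and 4.99 in IPEC-1 and between 4.13 and 4.51 in IPEC-J2. S100B, a calcium binding protein of glia, had 7.38, 7.63 and 6.93 in IPEC-1 and the floor in IPEC-J2 (difference -3.31, SE 0.195, adjusted p = 0.00140), and these signals lie below the background level. PTPRC, the general leukocyte marker, and the endothelial markers VWF, CDH5, KDR and TEK were at the floor on all arrays. Of the leukocyte list 4 of 6 had a probe set and CD3E was called lower (-1.93, adjusted p = 0.00346), with list means of 4.53 to 4.71 in IPEC-1 against 4.00 to 4.50 in IPEC-J2. All 5 endothelial markers had a probe set and PECAM1 was called lower (-1.46, adjusted p = 0.0307), with 5.65 to 5.88 in IPEC-1 against 4.00 to 4.87 in IPEC-J2. Among the fits that leave out 1 array PECAM1 passed only without IPEC-J2 replicate 2, and 1 of its 2 probe sets was at the floor on all arrays while the other differed by -2.92. Both genes were below the background level, and the part of other cell types in the signals of NDN and NREP was not tested.

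Over the whole series the arrays were similar. Between 40.5 and 48.3% of the probe sets per array were at the floor, the highest signals lay between 14.19 and 14.34 and the 75th percentiles between 8.31 and 8.56. The lowest median signal, 5.37, was that of IPEC-J2 replicate 1, where the other arrays had 6.18 to 6.53. NDN and NREP were also at the floor on the IPEC-J2 arrays with median signals of 6.53 and 6.40. Pearson correlations between arrays of a cell line were 0.920 to 0.937 over probe sets above the floor on any array, and no pair of arrays held identical values.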

How the data were processed

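The deposited table of the series holds 24123 probe sets with 1 log2 signal per array, which the authors obtained with GCOS 1.1.1 and PLIER, as named in the submitters' processing notes. Global scaling, a background correction, a normalization and a summary per probe set are described in the methods. Neither the log base nor the kind of normalization is given for the deposited signals in the sources used here. A log2 scale was assumed, since the floor of 4.00 is the log2 of 16, and no normalization was added. No detection calls were used, so a floor or a low signal is no call of absence. The labels give the same cell bank number for both cell lines, the methods different ones.

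Cell line and replicate were taken from the sample titles. Without the 124 control probe sets 23999 remained, of which 10069 had 1 gene symbol in the platform annotation, 198 had several and 13732 were unnamed here. The gene identifiers of 9961 were in the RefSeq table, all with the same symbol. Probe sets of a symbol were averaged, as in the methods, to 6765 genes, of which 1252 were at the floor on every array.

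The cell lines were compared by limma 3.58.1 under R 4.3.3 (lmFit and eBayes, no block), with Benjamini-Hochberg adjustment over 6765 genes and a threshold of 0.05. The fit was tested on simulated data. Folds are 2 to the power of the log2 difference. For a fold against the background level, probe set means under the level of the lower cell line were set to that level. The way this level was defined was chosen after its values had been seen, to match an earlier processing of these data, and other definitions are given in the closing section.

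NDN, NREP, the gene lists and the markers were chosen with earlier results of these data known. The lists were written from general knowledge. The genes named are those with the largest differences in each list, up to 4 called genes in a direction, 9 genes of interest whatever their call, the 5 genes most similar to NDN and to NREP, and the nearest measured genes on each side. Other genes were named after their values were seen. Alternatives were the methods' t-test, a block for replicate number or for culture note, the latter also as a random block, each array left out, quantile normalization, arrays centred at their 75th percentile, the brightest probe set of a gene, 16 added before the log, no genes at the floor or no genes with a mean under 5, and a robust trended eBayes. No sequence was used.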

Additional observations from a re-analysis of the deposited data

How the results depend on the processing

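NDN and NREP had floor values in each IPEC-J2 culture as deposited, so their differences moved only with the IPEC-1 arrays and the scale. When each array was left out in turn the difference lay between -7.80 and -7.64 for NDN and between -7.84 and -7.46 for NREP, and with an offset of 16 it was -6.75 and -6.64. The lower bounds of the fold moved most with the level that stands for the floor. They were 22.7 and 21.0 with its 90th percentile, 5.74 and 5.32 with the 99th, 214 and 199 with the floor as the signal and, added after the data were seen, 99.96 and 92.6 when signals at the floor were counted in the percentile, or 16.3 and 15.1 with the mean of the percentiles of single arrays. Without 1 array, between 355 and 613 genes were higher and between 417 and 572 lower, with the lowest counts without IPEC-J2 replicate 3. Without IPEC-J2 replicate 2, 390 were higher, and without IPEC-1 replicate 3, 494 were lower. Between the deviations of arrays with the same replicate number the correlations were -0.06, -0.11 and 0.06. For arrays with the same culture note they were 0.06 and 0.17. With 3 arrays per cell line these correlations constrain each other, so they cannot decide whether samples were paired. With the replicate block 272 genes were higher and 324 lower, and the differences of NDN and NREP stayed at -7.74 and -7.63. With the culture note as a block, which leaves 1 residual degree of freedom, limma called 0 higher and 0 lower genes, with 671 higher and 870 lower at an unadjusted p under 0.05, so that no call named here passed. The methods' t-test called 920 higher and 1154 lower genes without adjustment and 551 higher and 595 lower with it. The 18 settings gave 754 values for 42 other genes, namely genes named by the rule that were called and the neighbours of NDN and NREP. None of these values changed sign, 136 no longer passed and 6 passed in addition, all of KLF13 (adjusted p = 0.00912 with the replicate block). Genes named without a call, apart from the neighbours, and the genes most similar to NDN and NREP were not counted. Of the uncalled ones, SNRPN differed by 0.06 and -0.35 within notes A and B, and EIF3B by -0.12 and 0.11. What limits all of these values is that a signal at the floor has no lower end and that 3 arrays per cell line give few degrees of freedom.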

Other observations

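Some genes differed between the IPEC-1 arrays, and those named here were chosen after their values were seen. RRM2, a subunit of ribonucleotide reductase, had log2 signals of 9.38, 6.32 and 7.74 on IPEC-1 replicates 1, 2 and 3 and of 7.73, 8.60 and 8.36 in IPEC-J2. ORC1, of the origin recognition complex, had 8.21, 4.00 and 6.94 in IPEC-1, and CCNA2, the cyclin of S phase, had 7.74, 4.00 and 6.32. VIL1 (villin-1), a protein of the brush border, had 8.45, 4.00 and 8.53 in IPEC-1 against 13.83, 14.04 and 13.81 in IPEC-J2. For these 4 genes replicate 2 was the lowest IPEC-1 array. NDN was also lowest on this array, at 11.63 beside 11.66 on replicate 1, while NREP was at its highest IPEC-1 signal, 11.99. The list of G1/S genes and E2F targets had a mean log2 signal of 7.86, 6.79 and 7.26 on the 3 IPEC-1 arrays. Of the other DNA replication genes in this list, MCM3 (8.21, 6.36 and 7.27) and PCNA (9.81, 8.46 and 9.35) were also lowest on replicate 2. So were MCM4, MCM5 and TYMS. RRM1, with 10.78, 10.81 and 10.66, and MCM2, with 6.54, 6.54 and 6.47, were level on these arrays.

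At the floor in IPEC-1 were, in the opposite pattern, PNLIPRP2, a lipase, with 12.01 ± 0.58 in IPEC-J2, CYBA, a subunit of the phagocyte oxidase, with 11.39 ± 0.15, and PLIN2, a coat protein of lipid droplets, with 10.89 ± 0.17 (SD, n = 3 each). Of the listed markers THY1, a surface glycoprotein, had 9.38, 9.82 and 9.46 in IPEC-J2 against floor values in each IPEC-1 culture, at least 3.39-fold higher (difference 5.55, SE 0.130, adjusted p = 9.82e-05). These values are averages over 3 probe sets, which differed by 3.68 to 7.93.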
